A study of Homo sapiens with 6 samples.

Results

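FGF8, the receptor genes FGFR1 to FGFR4 and the feedback genes SPRY1, SPRY2, SPRY4, SPRED1 and DUSP6 were followed in Rh30 cells given a drug described as an ETS inhibitor or its solvent. These 10 genes were taken by symbol from the 35268 named genes of the expression table, and all 10 had enough reads to be tested. Rh30 is an established line from a fusion-positive rhabdomyosarcoma (FP-RMS), a muscle-like tumour driven by the PAX3-FOXO1 fusion protein, and both groups carry that fusion. The inhibitor is a small molecule that the study used as a mixture of its mirror-image forms. The study describes YK-4-279's action as a block of protein interactions of ETS transcription factors. It does not exclude that ETS factors and interactions besides those it examined have a part. Polyadenylated RNA was sequenced from 3 samples treated for 24 hours with 1 µM of the drug dissolved in DMSO and from 3 samples treated for 24 hours with DMSO alone. Only 1 cell line, 1 dose and 1 time were measured. Nothing in the labels says that the 3 samples of a group were separate cultures, so that the p-values measure the spread between these samples, which may be technical.

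FGF8 is a secreted growth factor that binds FGF receptors on the cell surface. A receptor bound by ligand passes its signal through adaptors and RAS to the kinases RAF, MEK and ERK, and ERK switches on genes whose products slow the same pathway. Sprouty and SPRED proteins act on RAS and RAF, and DUSP6 is a phosphatase that takes the activating phosphates off ERK, so that the mRNAs of these genes are often read as a trace of ERK activity. FGFR4 and FGF8 are known as genes of the PAX3-FOXO1 programme in FP-RMS, and FGF receptors keep muscle precursors dividing in normal development.

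The libraries held between 16724650 and 24677433 reads on named genes. Values are normalized counts, that is, reads scaled by 1 factor per library. The 9 markers listed for rhabdomyosarcoma, among them MYOD1, MYOG and DES, were all present, with a summed level between 73888 and 83055 normalized counts. The summed level of 4 immune markers was at most 1.00, that of 3 endothelial markers at most 58.0, that of 4 epithelial markers at most 90.0, most of it from EPCAM, and that of 3 fibroblast markers at most 482, most of it from PDGFRA. The first DMSO replicate was unlike the rest. It correlated with the other 5 libraries at a mean of 0.989 across genes, where no other library was below 0.992, and mitochondrial genes took 6.05% of its reads and at most 5.03% elsewhere. It also had the fewest reads, 16724650, and the fewest genes with a read, 17822 against 18405 to 19234 elsewhere. The main results are therefore given with and without it.

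With all 6 libraries, 0 of the 10 genes passed the threshold of 0.05 on the adjusted p-value. The test was limma, which fits a linear model to log2(normalized count + 1), and of the 13930 genes in it 3.41% passed, 1.26% higher and 2.15% lower. At an unadjusted p-value under 0.05, 6 of the 10 genes passed in limma, against 18.7% of all genes tested, and the count models edgeR and DESeq2, which called 3.34% and 4.47% of all genes, also called 0 of the 10. The point estimates were small and went both ways. They lay between -0.24 and 0.26 on the log2 scale, with 6 genes lower and 4 higher and a median of -0.09, against a median of -0.01 over all genes tested. Without DMSO replicate 1 these medians were -0.05 and -0.01. For 6 of the 10 genes the 3 drug-treated libraries did not overlap with the 3 DMSO libraries. FGF8, FGFR1 and SPRY4 were lower in every drug-treated library, and FGFR2, FGFR3 and SPRY2 were higher in every one. Such a separation was found for 26.0% of all genes tested, 15.1% lower and 10.9% higher.

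**Figure D1:**
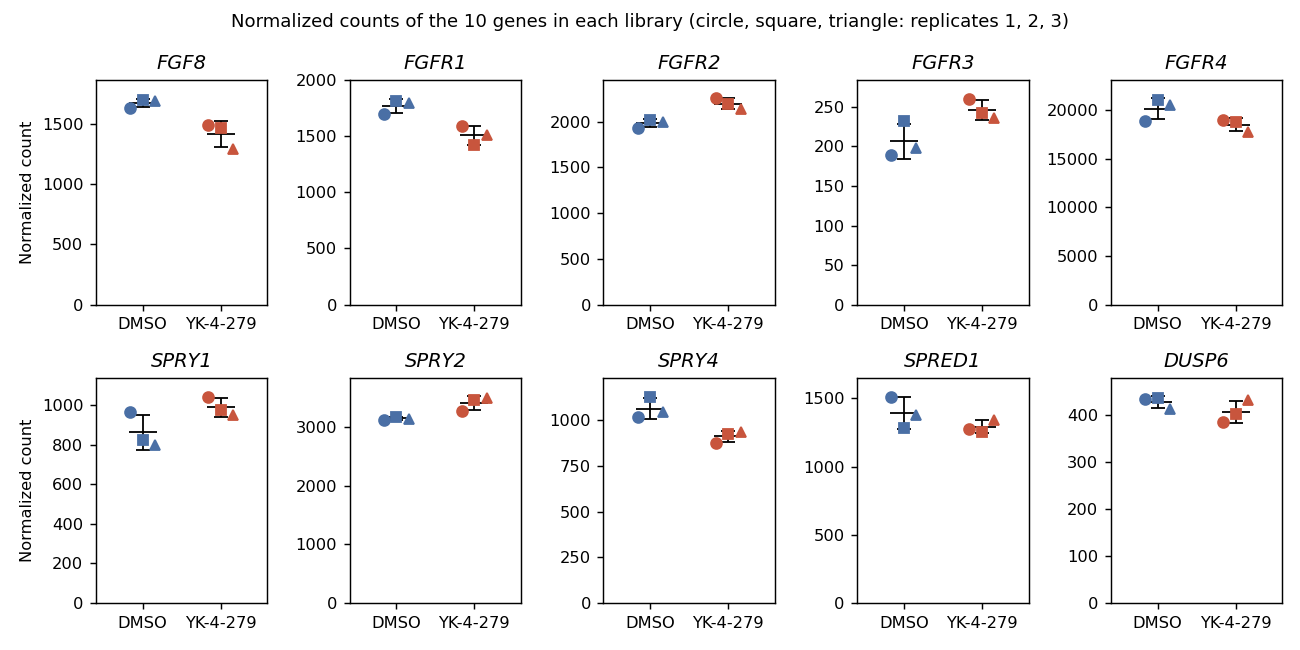
Normalized counts (linear axis from 0) of the 10 genes in the 3 DMSO and 3 drug-treated libraries. Points are libraries, circles, squares and triangles mark replicates 1, 2 and 3, and the bars show the mean ± SD (n = 3). FGF8, FGFR1 and SPRY4 are lower without overlap, FGFR2, FGFR3 and SPRY2 are higher without overlap, and the remaining 4 genes overlap between the groups.

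The calls depended on DMSO replicate 1. Without it 5 of the 10 genes passed in limma, 4 of them lower and 1 higher, and so did 13.1% of all genes tested, 8.46% lower and 4.62% higher. These were FGF8, FGFR1, FGFR4 and SPRY4, which fell, and SPRY1, which rose. Leaving out DMSO replicate 2 or 3 gave 0 of 10, where 4.85% and 1.74% of all genes passed, and leaving out drug-treated replicate 1, 2 or 3 gave 0 of 10, where 0.136%, 0.165% and 0.330% passed. The 10 genes also gave 0 calls with a replicate block (1.29% of all genes) and with a spread estimated without its trend on the mean (0.237%). Once a trend of each library on transcript length and GC content was taken out, 6 of the 10 passed with all 6 libraries, FGFR2 in addition to those 5, against 11.5% of all genes. In 2 fits without DMSO replicate 1 that were chosen after the data were seen, edgeR called 7, those 5 with FGFR2 and SPRY2 (13.0% of all genes), and the GC and length model called 5 (16.3%). The direction of each of the 10 genes' log2 fold change was the same under every alternative run. The part of that library's depth, of its mitochondrial reads or of its distance from the other libraries in these calls was not tested.

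FGF8 is the ligand among the 10 genes. It lies on chromosome 10 from 101770109 to 101780371 of hg38, on the minus strand. The normalized counts of FGF8 were 1628, 1692 and 1687 over DMSO replicates 1 to 3 and 1491, 1463 and 1287 over drug-treated replicates 1 to 3. Every drug-treated library lay below every DMSO library, and the lowest was drug-treated replicate 3. The means were 1669 ± 35.5 and 1413 ± 111 (SD, n = 3 each), a difference of -15.3%. The spread was wider with the drug, at a coefficient of variation of 7.83%, than with DMSO, at 2.13%. In log2 terms the fold change was -0.24 (standard error 0.07, adjusted p = 0.0778 in limma), a size that exceeded the absolute change of 79.3% of the genes tested. FGF8 had from 1286 to 2020 reads per library. Without DMSO replicate 1 the log2 fold change was -0.26 (standard error 0.05, adjusted p = 3.7e-04 in limma). Across the alternatives it ranged from -0.18 without drug-treated replicate 3 (adjusted p = 0.354 in limma) to -0.33 with the GC and length trend removed. With that trend removed and DMSO replicate 1 left out it was -0.23. In bulk RNA, fewer cells that express a gene and less RNA per cell cannot be told apart.

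The 4 receptors differed widely in level. Levels of different genes were compared as normalized counts per kilobase, with the length of all exons of a gene merged. FGFR4 was the most abundant by this measure, at 4183 ± 228 normalized counts per kilobase in DMSO libraries and 3840 ± 136 in drug-treated ones (SD, n = 3 each). FGFR2 had 105 ± 2.57 and 117 ± 3.31 per kilobase, FGFR1 had 103 ± 3.71 and 87.6 ± 5.03, and FGFR3 had 42.6 ± 4.62 and 50.7 ± 2.51. FGFR4 therefore made up between 93.6% and 94.4% of the receptor level per kilobase in every library. The ranges of FGFR2 and FGFR1 over the 6 libraries overlapped, and FGFR3 lay below both in every library. Merged exons are long for FGFR1 and FGFR2, at 17201 and 18813 bases. With the longest transcript as the length instead, FGFR4 made up 91.3% ± 0.17 in DMSO and 90.7% ± 0.29 in drug-treated libraries (SD, n = 3 each), and FGFR3 remained the lowest of the 4 receptors.

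FGFR4 lies on chromosome 5 from 177086905 to 177098144 of hg38. FGFR4 had 18883, 20974 and 20500 normalized counts in the DMSO libraries, in the order of the replicates, and 18952, 18739 and 17724 in the drug-treated ones. The groups overlapped through DMSO replicate 1, which lay below drug-treated replicate 1. FGFR4 had -0.12 as its log2 fold change (standard error 0.06, adjusted p = 0.281 in limma) with all libraries and -0.17 (standard error 0.04, adjusted p = 0.00285 in limma) without DMSO replicate 1. Over the alternatives it lay between -0.06 with quantile scaling and -0.19 with the GC and length trend removed. FGFR4 ranked above 99.4% of the genes tested in mean normalized count.

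FGFR1, a receptor broadly expressed in mesenchymal cells, lies on chromosome 8 from 38400215 to 38468834. It had 1698, 1819 and 1796 normalized counts with DMSO and 1592, 1419 and 1511 with the drug. All 3 drug-treated values lay below all 3 DMSO values, with means of 1507 ± 86.5 and 1771 ± 63.9 (SD, n = 3 each). FGFR1 had -0.23 as its log2 fold change (standard error 0.07, adjusted p = 0.0726 in limma), close in size to that of FGF8, and it was -0.26 (adjusted p = 1.43e-04 in limma) without DMSO replicate 1. The gene model of FGFR1 overlaps that of LETM2 on the other strand, which had at most 51.0 normalized counts in any library.

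FGFR2 and FGFR3 lay on the other side of 0. FGFR2, located between bases 121478332 and 121598458 of chromosome 10, had 1929, 2021 and 2001 normalized counts with DMSO and 2259, 2194 and 2134 with the drug. The groups did not overlap, and the log2 fold change was 0.15 (standard error 0.06, adjusted p = 0.206 in limma). FGFR3, located between bases 1793293 and 1808872 of chromosome 4, had 189, 232 and 199 normalized counts with DMSO and 260, 242 and 236 with the drug. Here too the groups did not overlap, though only by a small gap between DMSO replicate 2 and drug-treated replicate 3. FGFR3 had the largest point estimate of the 10 genes in absolute size, at 0.26, and the largest standard error, at 0.11 (adjusted p = 0.238 in limma), and it rested on 150 to 303 reads per library. Neither FGFR2 nor FGFR3 passed in limma without DMSO replicate 1, where the adjusted p-values were 0.0594 and 0.262. FGFR2 passed in edgeR without that library (adjusted p = 0.0279) and in limma with all libraries and the GC and length trend removed (adjusted p = 0.0497).

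Ratios of receptors within a library do not depend on its normalization factor, and they do not show which of the 2 genes differs. The ratio of FGFR2 to FGFR1 normalized counts, chosen after the values were seen, was 1.14, 1.11 and 1.11 in DMSO replicates 1 to 3 and 1.42, 1.55 and 1.41 in drug-treated replicates 1 to 3. DMSO replicate 1 was the DMSO library nearest to the drug-treated ones, and the groups did not overlap. Of the receptor level per kilobase, FGFR2 held 2.38% ± 0.07 with DMSO and 2.85% ± 0.03 with the drug, FGFR3 held 0.960% ± 0.07 and 1.24% ± 0.03, and FGFR1 held 2.32% ± 0.04 and 2.14% ± 0.13 (SD, n = 3 each). In each of these 3 receptors the shares did not overlap between the groups. The share of FGFR4 was 94.3% ± 0.10 and 93.8% ± 0.19, with the drug-treated libraries the lower ones in every case. These shares are descriptions and were not tested.

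**Figure D2:**
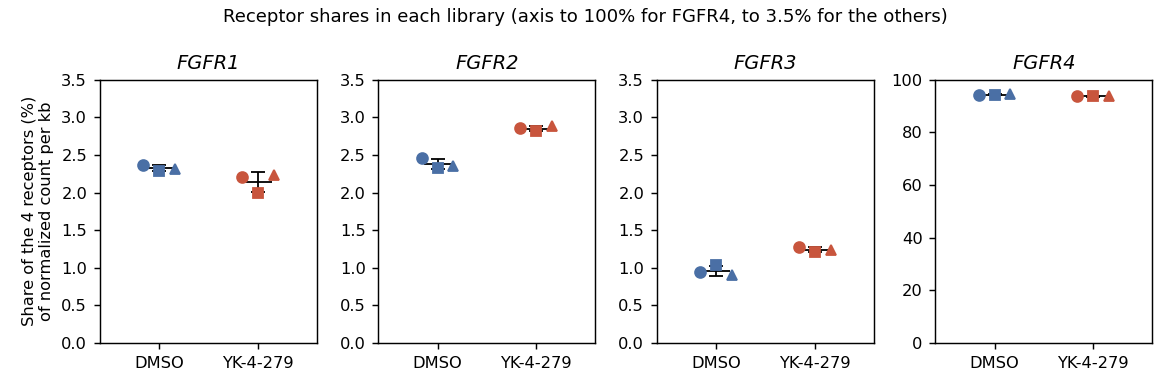
Share of each receptor in the summed normalized count per kilobase of FGFR1 to FGFR4 (percent, linear axes from 0, to 100% for FGFR4 and to 3.5% for the others) in the DMSO and drug-treated libraries. Points are libraries with the mean ± SD (n = 3), circles, squares and triangles mark replicates 1, 2 and 3. FGFR4 holds 93.6% to 94.4% in every library, while FGFR2 and FGFR3 take a larger share in the drug-treated libraries.

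The point estimates of the feedback genes lay on both sides of 0, above it for SPRY1 and SPRY2 and below it for SPRY4, SPRED1 and DUSP6. The sequences before the transcription starts were examined because the drug is described as acting on ETS factors, which bind letters around GGAA. RefSeq promoters (GRCh38.p14) matched 8 of the 10 genes by symbol, with 16 starts in all, and FGF8 and FGFR1 were not among them. The 250 bases before each start were searched on both strands for CCGGAA, a common form of the ETS core. They were also searched for TGAATGAA or TGAATGGA, forms of the site of the repressor CIC, which ERK releases from its targets. Further forms of the CIC site were not searched for. No stretch of letters can hold both motifs in overlap. CCGGAA stood before 2 of the 16 starts, 1 of SPRY1 and 1 of SPRY2, and before 14.5% of all 35116 promoters in the table. All 250 bases of that SPRY1 window lie within annotated exons of SPRY1, and the other SPRY1 window holds 0 matches. From 0 to 250 bases of a window fell within annotated exons of its own gene. TGAATGAA or TGAATGGA stood before 0 of the 16 starts and before 2.19% of all promoters, and this count does not cover other forms of the CIC site. The windows of SPRY2, which holds the ETS letters at 142 bases before the start, of DUSP6, the classical ERK feedback gene, and of FGFR4, the most abundant receptor, are shown 5′ to 3′ with CCGGAA in capitals, at chr13:80341127-80341376 (minus strand), chr12:89352502-89352751 (minus strand) and chr5:177086665-177086914 (plus strand).
SPRY2: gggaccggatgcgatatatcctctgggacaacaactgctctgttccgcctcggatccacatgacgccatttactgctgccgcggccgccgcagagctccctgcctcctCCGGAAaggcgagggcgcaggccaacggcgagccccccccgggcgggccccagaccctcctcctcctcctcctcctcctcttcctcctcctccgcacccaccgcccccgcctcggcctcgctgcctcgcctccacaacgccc
DUSP6: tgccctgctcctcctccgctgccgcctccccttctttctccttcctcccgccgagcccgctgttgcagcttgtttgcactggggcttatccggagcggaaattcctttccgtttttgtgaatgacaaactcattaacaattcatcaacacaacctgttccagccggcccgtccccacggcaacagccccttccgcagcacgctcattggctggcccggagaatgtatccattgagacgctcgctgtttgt
FGFR4: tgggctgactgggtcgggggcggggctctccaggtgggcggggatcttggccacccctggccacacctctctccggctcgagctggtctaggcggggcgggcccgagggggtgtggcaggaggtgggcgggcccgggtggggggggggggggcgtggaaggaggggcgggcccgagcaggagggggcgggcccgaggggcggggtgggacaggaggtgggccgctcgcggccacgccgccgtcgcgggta

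SPRY4 lies on chromosome 5 from 142310427 to 142326455. SPRY4 had 1020, 1127 and 1045 normalized counts over the 3 DMSO libraries and 877, 923 and 934 over the 3 drug-treated ones. Every drug-treated library was below every DMSO library, with means of 911 ± 30.1 and 1064 ± 56.0 (SD, n = 3 each). SPRY4 had -0.22 as its log2 fold change (standard error 0.07, adjusted p = 0.103 in limma), and without DMSO replicate 1 it was -0.25 (adjusted p = 0.00145 in limma). SPRY4-AS1, an antisense gene that overlaps SPRY4, had at most 6.0 normalized counts. The strand setting of the counting is not given, and the part of antisense reads in the SPRY4 value was not tested.

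SPRY1, located between bases 123396795 and 123403760 of chromosome 4, had 962, 824 and 799 normalized counts with DMSO and 1039, 975 and 949 with the drug. The groups overlapped only through DMSO replicate 1, which lay above drug-treated replicate 3. The log2 fold change of SPRY1 was 0.20 (standard error 0.08, adjusted p = 0.210 in limma), and it was 0.28 (standard error 0.06, adjusted p = 4.97e-04 in limma) without DMSO replicate 1. SPRY2, whose promoter is printed above, lies on chromosome 13 from 80335976 to 80341126 and was the most abundant of the 3 sprouty genes per kilobase, at 981 ± 7.81 in DMSO and 1062 ± 38.1 in drug-treated libraries (SD, n = 3 each). SPRY2 had 3131, 3180 and 3145 normalized counts with DMSO and 3272, 3460 and 3503 with the drug. The DMSO libraries were close together, at a coefficient of variation of 0.796%, the lowest of the 10 genes. The log2 fold change was 0.11 (standard error 0.06, adjusted p = 0.297 in limma) and did not pass in limma without DMSO replicate 1 (adjusted p = 0.0871), whereas edgeR without that library called it (adjusted p = 0.0422).

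Ratios of sprouty genes within a library, also chosen after the values were seen, do not depend on the normalization factor but do not show which of the 2 genes differs. The ratio of SPRY2 to SPRY4 normalized counts was 3.07, 2.82 and 3.01 with DMSO and 3.73, 3.75 and 3.75 with the drug. The ratio of SPRY1 to SPRY4 was 0.943, 0.731 and 0.764 with DMSO and 1.18, 1.06 and 1.02 with the drug. Neither ratio overlapped between the groups, and DMSO replicate 1 was the DMSO library nearest to the drug-treated ones in both.

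SPRED1 and DUSP6 showed no separation. SPRED1, an inhibitor of RAS activation located between bases 38252836 and 38357249 of chromosome 15, had 1513, 1281 and 1379 normalized counts with DMSO and 1276, 1252 and 1345 with the drug. Its log2 fold change was -0.11 (adjusted p = 0.469 in limma), with an interval at 95% confidence from -0.26 to 0.05, and -0.04 (adjusted p = 0.670 in limma) without DMSO replicate 1, which held its highest value. Without DMSO replicate 2 SPRED1 was at -0.16, and with the GC and length trend removed at -0.0026. DUSP6, located between bases 89347235 and 89352501 of chromosome 12, had 434, 436 and 413 normalized counts with DMSO and 385, 401 and 431 with the drug. The log2 fold change of DUSP6 was -0.08 (adjusted p = 0.667 in limma, interval at 95% confidence from -0.26 to 0.11) and -0.07 (adjusted p = 0.672 in limma) without DMSO replicate 1. With 1 library left out it ranged from -0.12 (without drug-treated replicate 3) to -0.04 (without drug-treated replicate 1), with adjusted p-values of 0.644 or more in limma. With its 344 to 495 reads per library, the interval with all libraries leaves room for a change of DUSP6 of the size seen for SPRY4. Its promoter, shown above, holds none of the letters searched for, and other forms of the CIC site were not searched for there.

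**Figure D3:**
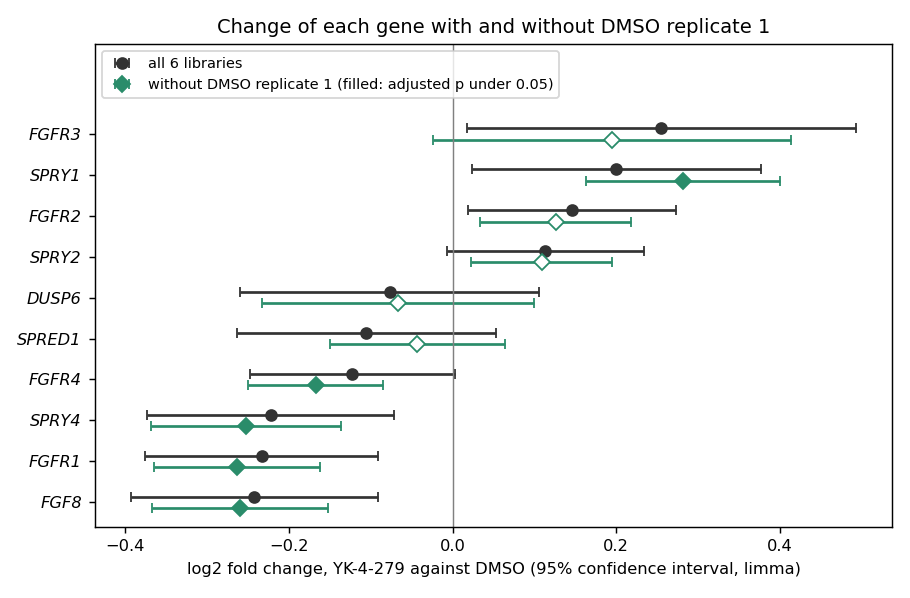
Log2 fold change of each gene, drug against DMSO, with its 95% confidence interval from limma, for all 6 libraries (circles) and without DMSO replicate 1 (diamonds, filled where the adjusted p-value is under 0.05). No circle passes the threshold, and the filled diamonds are FGF8, FGFR1, SPRY4 and FGFR4 below 0 and SPRY1 above 0.

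Per kilobase of merged exons the 10 genes ordered as FGFR4, FGF8, SPRY2, SPRY1, SPRED1, SPRY4, FGFR2, DUSP6, FGFR1 and FGFR3 by their mean over the 6 libraries. The ranges over the 6 libraries overlapped for the neighbours FGF8 and SPRY2, SPRED1 and SPRY4, FGFR2 and DUSP6, and DUSP6 and FGFR1. The order of 5 genes depended on the length used. By the longest transcript FGFR2 and FGFR1 stood at ranks 5 and 6, above SPRY4, SPRED1 and DUSP6, with FGFR1 at 285 ± 10.3 and DUSP6 at 118 ± 3.42 per kilobase with DMSO (SD, n = 3 each). By merged exons again, with DMSO, FGF8 was above SPRY2, at 1156 ± 24.6 against 981 ± 7.81 per kilobase, and with the drug its mean was below, at 979 ± 76.7 against 1062 ± 38.1 (SD, n = 3 each), though not in drug-treated replicate 1. The coefficients of variation of the 10 genes had a median of 4.43% with DMSO and 4.19% with the drug, against medians of 9.24% and 5.23% over all genes tested.

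Other genes of the pathway were counted in 5 lists made by function, with earlier results of these data known. Their shares beside those of all genes are therefore descriptions. Of their 101 genes, 79 were tested, and 6 passed in limma with all libraries, all of them higher, against 1.26% of all genes tested that passed in that direction. Among the other FGF ligands, 16 of 21 had a mean under 10 normalized counts, 4 of these had 0 reads in all 6 libraries, which allows up to 3 reads in each, and 0 of the 5 tested passed in limma, with 1 at an unadjusted p-value under 0.05 and 0 in edgeR and DESeq2. FGF7, the ligand with the highest mean normalized count after FGF8, had 864 ± 53.0 and 903 ± 77.5 (SD, n = 3 each), and passed only with the GC and length trend removed from all 6 libraries (log2 fold change 0.18, adjusted p = 0.0487). Among co-receptors and binding proteins, which include heparan sulfate proteoglycans that hold FGFs at the cell surface, 0 of 15 passed in limma, 5 of them were under an unadjusted p-value of 0.05, edgeR called 0 and DESeq2 called 1, GPC3, which was lower. The syndecan SDC3 had the highest mean of that list, with 12511 ± 1673 and 10340 ± 151 normalized counts (SD, n = 3 each) and a log2 fold change of -0.27 (adjusted p = 0.0905 in limma), which was -0.38 without DMSO replicate 1 (adjusted p = 2.65e-10) and -0.32 with the GC and length trend removed (adjusted p = 2.4e-04). In the relay from receptor to ERK, 0 of 24 passed in limma, 2 were under an unadjusted p-value of 0.05, and edgeR and DESeq2 called 0. PLCG1, a phospholipase bound by activated FGF receptors and the most highly counted gene of that list, had a log2 fold change of -0.11 (adjusted p = 0.293 in limma). Without DMSO replicate 1 PLCG1 was at -0.15 (adjusted p = 0.00539 in limma), and it also passed with all libraries once the GC and length trend was removed (adjusted p = 0.00705). Without that library 4 of the 24 relay genes passed, with PLCG1, GAB1 and SHC1 lower and CBL higher, beside 13.1% of all genes tested in that fit. The medians of these 3 lists were 0.06, -0.09 and -0.04 on the log2 scale with all libraries and -0.0075, -0.11 and -0.05 without DMSO replicate 1, so that the sign of the ligand median rested on that library.

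The genes that passed stood among the other brakes and the transcription output of ERK. Of 18 other brakes tested, 2 rose and 0 fell. DUSP1, a nuclear phosphatase of MAP kinases, rose from 447 ± 47.8 to 587 ± 43.2 normalized counts, and DUSP5, a nuclear phosphatase of ERK, rose from 131 ± 3.57 to 178 ± 5.0 (SD, n = 3 each). Their log2 fold changes were 0.40 and 0.44 (adjusted p = 0.0403 and 0.0492 in limma). Both calls were close to the threshold. DUSP5 was not called by DESeq2 (adjusted p = 0.0573), without a filter on the mean (0.0836) or with quantile scaling (0.0844), which also lost DUSP1 (0.0635). Leaving out any 1 library other than DMSO replicate 1 ended both calls, with adjusted p-values from 0.0744 to 0.252 in limma. Both calls also ended with the replicate block (DUSP5 0.112, DUSP1 0.0661) and with a spread estimated without its trend on the mean (DUSP5 0.0753, DUSP1 0.164). The brake with the highest mean, ERRFI1, had a log2 fold change of 0.22 (adjusted p = 0.0646 in limma). ERRFI1 passed in edgeR (adjusted p = 0.0425), in DESeq2 (0.0172), with TMM (0.0466) or quantile scaling (0.0253), after removal of the trend on GC and length (2.8e-04), and also when DMSO replicate 1 was left out (4.05e-07), where its log2 fold change was 0.29. The brakes called higher numbered 3 of 18 in edgeR, 2 in DESeq2 and 4 in limma without DMSO replicate 1, where 1.48%, 1.73% and 4.62% of all genes were called higher. Of 17 output genes tested, 4 rose and 0 fell. EGR1 rose from 280 ± 19.3 to 598 ± 37.8 normalized counts, and FOS rose from 42.5 ± 8.31 to 89.9 ± 13.8 (SD, n = 3 each). EGR1, FOS and EGR2, transcription factors induced within minutes of a stimulus, had log2 fold changes of 1.10, 1.07 and 0.87 (adjusted p = 1.08e-04, 0.0122 and 0.0226 in limma), and the membrane protein gene EMP1 had one of 0.59 (adjusted p = 0.00911 in limma). EPHA2, with the highest mean of the list, was at 0.11 (adjusted p = 0.437 in limma), and from 0.04 without DMSO replicate 1 to 0.18 without DMSO replicate 2. Without DMSO replicate 1 the log2 fold changes of EGR1, FOS, EGR2, EMP1, DUSP1 and DUSP5 were 1.04, 1.16, 0.80, 0.66, 0.46 and 0.46, and all 6 passed in limma. The same 4 output genes were called by edgeR and DESeq2, and EGR2 was lost with quantile scaling (adjusted p = 0.0501), with the replicate block (0.0534) and without DMSO replicate 3 (0.0626). A spread estimated without its trend on the mean lost EGR2 (0.0932), FOS (0.0947) and EMP1 (0.0755) in limma. The medians of these 2 lists were 0.14 and 0.11, and without DMSO replicate 1 they were 0.10 and 0.04. Without DMSO replicate 1 the count over the 5 lists was 22, with 10 higher and 12 lower. With drug-treated replicate 1, 2 or 3 left out, EGR1 was the only one of the 101 genes that passed in limma.

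**Figure D4:**
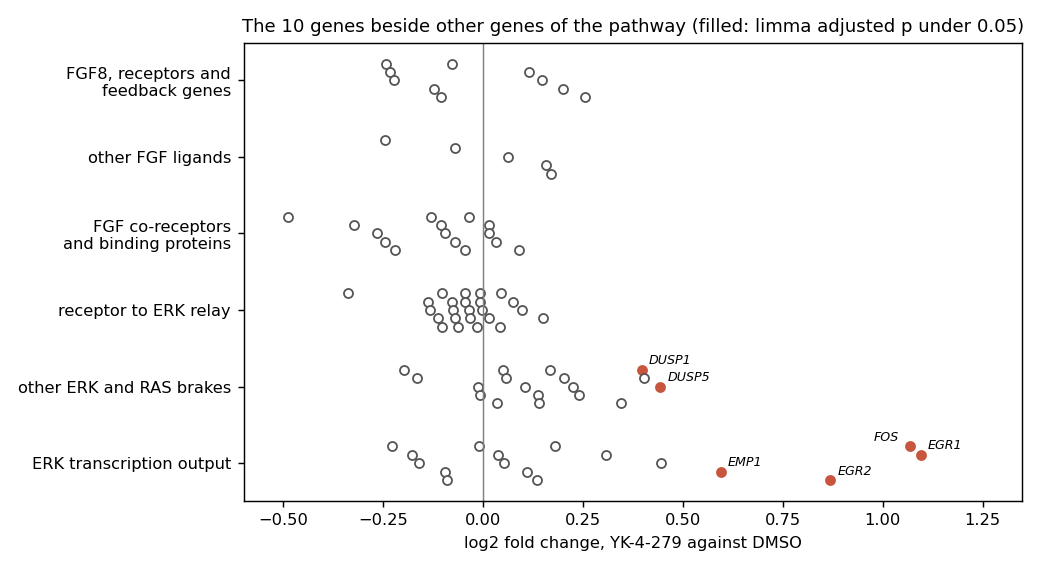
Log2 fold changes, drug against DMSO, of the 10 genes (top row) and of the tested genes of the 5 other pathway lists (1 point per gene, spread vertically for legibility). Filled points were under 0.05 for the adjusted p in limma with all 6 libraries. The 6 filled points, DUSP1, DUSP5, EMP1, EGR1, EGR2 and FOS, all lie above 0.

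The genes whose profile over the 6 libraries was most like that of FGF8, among 10698 genes with a mean of at least 100 normalized counts, were ARSK, SLC20A2, HDAC1, ZNF775 and MAGEE1, with Pearson correlations of log2(normalized count + 1) of 0.995, 0.993, 0.991, 0.979 and 0.978. The 6 points share the split between the groups, and 0 of these 5 genes passed in limma with all libraries, with adjusted p-values between 0.185 and 0.482.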

How the data were processed

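Reads were trimmed by the authors with BBDuk, mapped to hg38 with STAR 2.7.9a, which also counted them, and normalized. DESeq2 was used by the authors for testing. Gene annotation, strand setting and DESeq2 options are not given in the sources used here. The deposited unit is thus a scaled read signal (normalized count) per gene. Of 35269 rows, 1 had no gene name, held at most 6 reads per library and was left out. All sample columns were used. Dividing by the value of 1 read, estimated per library, gave whole reads within 0.01 for 100% of the values.

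The test was limma 3.58.1 (R 4.3.3; lmFit, eBayes with trend), two-sided, with Benjamini-Hochberg adjustment, on log2(normalized count + 1). It took in 13930 genes whose mean was 10 or more. The pseudocount understates changes at low counts. The code was tested on simulated reads. Alternatives changed the pseudocount, the filter, the scaling (TMM or quantile), the eBayes trend or the block, left out each library once, used edgeR 4.0.16 or DESeq2 1.42.0 for the recovered reads, or took out trends of each library on GC content and length (98.4% of genes tested have both). Gene positions and lengths came from GENCODE 44 (hg38).

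The members and lists were chosen with earlier results of these data known. Named from each other list were the gene with the highest mean and the genes past the threshold (at most 6), and, as most like FGF8, 5 genes. Limits from 0 reads cover counting error only.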

Additional observations from a re-analysis of the deposited data

How the results depend on the processing

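With all 6 libraries 0 of the 10 genes were called. Leaving out 1 library gave from 0 to 5, with 5 only without DMSO replicate 1. Removing the trend on GC content and length gave 6 (FGF8, FGFR1, FGFR4 and SPRY4 lower, FGFR2 and SPRY1 higher). In the 2 fits chosen after the data were seen, edgeR without DMSO replicate 1 gave 7 and the removal of the trend without that library gave 5. The removal moved FGF8, with the highest transcript GC content of the 10 (66.5%), to -0.33 and SPRED1, with the lowest (36.3%), to -0.0026. Of the other pathway genes 6 were called, with 1 under eBayes without trend, 3 with the replicate block, 20 with the trend removed (9 higher and 11 lower, against 11.5% of all genes), from 1 to 22 with 1 library left out (against 0.136% to 13.1%), 24 with edgeR (12 and 12, against 13.0%) and 28 with the trend removed (12 and 16, against 16.3%) in the fits without DMSO replicate 1. The 6 were all higher. The share of FGFR4 was 91.3% and 90.7% by the longest transcript, against 94.3% and 93.8%. The fold changes of the 10 genes and of the 11 other pathway genes named by rule did not reverse under the alternatives run, and those of the genes chosen after their values were seen were not followed through all of them. The causes were not tested.

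Replicate numbers were no sign of pairing. Deviations from the group mean correlated at -0.098, -0.027 and -0.027 between samples of the same number, and no sample correlated best with its own number. A replicate block left 0 calls among the 10 genes and 3 among the other pathway genes (EGR1, EMP1 and FOS). The depth, from 150 reads for FGFR3 to 24553 for FGFR4, limits FGFR3 and DUSP6 most.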

Other observations

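Without DMSO replicate 1, limma called 22 of the 79 other pathway genes tested, 10 higher and 12 lower, against 4.62% and 8.46% of all genes tested, and the genes below were chosen after their values were seen. Among FGF co-receptors and binding proteins 6 of 15 fell and 0 rose. These were SDC1 and SDC3, GPC1, GPC3 and GPC4, which are cores of cell surface heparan sulfate proteoglycans, and the decoy receptor FGFRL1, with log2 fold changes of -0.38, -0.38, -0.20, -0.21, -0.17 and -0.13. With all 6 libraries the same genes had -0.25, -0.27, -0.11, -0.32, -0.22 and -0.09, and none passed in limma as reported above, whereas DESeq2 called GPC3 and limma called all 6 once trends on length and GC content were taken out. The transcription output of ERK went both ways in the same fit. EGR1, EGR2, FOS, EMP1 and PHLDA1 rose, while ETV4, ETV5 and CCND1 fell, by 0.29, 0.17 and 0.18 on the log2 scale. ETV4 and ETV5 are ETS factors of the PEA3 group that are used, like SPRY4, as readouts of FGF signalling. ETV1, the remaining gene of that group, had -0.03 and did not pass (adjusted p = 0.842 in limma). With all 6 libraries PHLDA1 had 0.13 (adjusted p = 0.529 in limma), and ETV4, ETV5 and CCND1 had log2 fold changes of -0.18, -0.23 and -0.16 and adjusted p-values of 0.318, 0.0967 and 0.142 in limma.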
